A study of Mus musculus with 6 samples.

Results

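The proteasome is the protease complex that degrades ubiquitin-tagged proteins in the cytosol and nucleus. Its transcripts were followed here in aortas of aged C57BL/6 mice, 3 of them Sirt2-KO (replicates 4, 7 and 8) and 3 wild type (WT, replicates 2, 4 and 8), each sample being total RNA of the labelled tissue. Sirt2 encodes an NAD-dependent deacetylase. The labels give neither the allele that removes it nor the age of the mice in numbers. Genes were taken by name: every name that starts with Psm, a letter from a to g and a digit, without the immunoproteasome genes Psmb8, Psmb9 and Psmb10. This gave 39 of the 8690 gene names in a table of FPKM values, which are fragment counts divided by transcript length and library size. All 39 passed the filter on low values (an average over the 6 aortas of 1 FPKM or more). The subunit, chaperone, activator and inhibitor genes Psma8, Psmb11, Psmd5, Psmd9, Psme3, Psmf1 and Psmg1 were not among the 39 names and are not analysed here.

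As background, the core particle is a barrel of stacked rings. The outer rings are made of alpha subunits (Psma genes) and gate the entry, and the inner rings are made of beta subunits (Psmb genes) and hold the proteolytic sites. A regulatory particle caps the barrel: its base contains the ATPases that unfold substrates (Psmc genes) and large scaffold subunits, and its lid contains the enzyme that removes ubiquitin. Cells keep the subunits in fixed proportions, and the transcription factor encoded by Nfe2l1 is known to raise the genes together when proteasome activity is short. In the vessel wall as elsewhere, interferon gamma replaces the constitutive catalytic subunits Psmb5, Psmb6 and Psmb7 by the immune forms Psmb8, Psmb9 and Psmb10.

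The constitutive proteasome transcripts had small differences between Sirt2-KO and WT aortas. None of the 39 passed an adjusted p of 0.05 in limma (smallest adjusted p = 0.0862, Psmc6), while 2.91% of the 8605 genes tested did (250 genes; p-values adjusted over all of them). Of the 250, 197 were higher in Sirt2-KO (2.29% of genes tested) and 53 lower (0.616%). That background count depended on single aortas: leaving 1 out brought it to 344, 28 and 29 for Sirt2-KO replicates 4, 7 and 8, and to 71, 269 and 150 for WT replicates 2, 4 and 8. At an unadjusted p under 0.05 there were 3 members (7.69%), all lower in Sirt2-KO, against 24.8% of all genes tested (12.4% lower and 12.4% higher). Leaving out Sirt2-KO replicate 4 made that 9 members, and the share of all tested genes in that fit was not taken. The members' log2(FPKM + 1) differences, Sirt2-KO minus WT, had a median of -0.11, and that of all tested genes was -0.08. Leaving out Sirt2-KO replicate 4 or 8 gave a members' median of -0.18 or -0.07, where that of all tested genes was -0.11 or -0.04. The sign was negative for 29 of the 39 members (74.4%) and for 57.9% of all tested genes. Among genes averaging 20 FPKM or more, the median was -0.11 for the 33 members and -0.02 for all 3337 tested genes. At that level the sign was negative for 25 of the 33 members and for 52.3% of all tested genes. Member differences ranged from -0.51 to 0.30. Of all tested genes, 25.9% lay farther from 0 than the farthest member, Psmd8, and of those averaging 20 FPKM or more, 19.6% did. In bulk tissue, fewer cells of a type and less RNA per cell cannot be told apart.

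The members were also steady from aorta to aorta. The SD of log2(FPKM + 1) over the 6 aortas had a median of 0.136 among the 39 members and 0.285 among all tested genes. Among genes averaging 20 FPKM or more, it was 0.132 for the 33 members at that level and 0.228 for all 3337 tested genes at that level. Rows with a variance under 1 over the 6 aortas were not listed (smallest 1.00003, and 1.05 among the 66 member rows), so the steadiest transcripts can be missing from either figure.

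Sirt2 had 2.56, 3.32 and 2.23 FPKM in Sirt2-KO aortas, against 26.5, 34.1 and 49.2 FPKM in WT aortas (log2 difference -3.31, limma adjusted p = 0.00156). The 8 smooth muscle markers summed to between 7708 and 14036 FPKM in Sirt2-KO and between 9115 and 17046 FPKM in WT, all 8 being lower in Sirt2-KO with 0 past the threshold by limma and 2 at an unadjusted p under 0.05. Summed levels of 10 adipocyte markers were 4431 to 6614 FPKM in Sirt2-KO and 683 to 2513 FPKM in WT, and 9 of the 10 were higher in Sirt2-KO, 2 of them past the threshold. The 8 fibroblast markers summed to 1508 to 2689 FPKM in Sirt2-KO and 762 to 937 FPKM in WT, all 8 being higher and 3 past the threshold. The 9 macrophage markers summed to 443 to 728 FPKM in Sirt2-KO and 150.0 to 409 FPKM in WT, all 9 being higher and 0 past the threshold by limma (8 at an unadjusted p under 0.05). The 6 Schwann cell markers summed to 107 to 127 FPKM in Sirt2-KO and 133 to 264 FPKM in WT, with 5 lower and 2 of these past the threshold. Among 8 endothelial markers (301 to 338 FPKM in Sirt2-KO, 337 to 556 FPKM in WT) 0 passed by limma and 1 had an unadjusted p under 0.05. The 7 heart and skeletal muscle markers tested summed to 66.5 to 70.6 FPKM in Sirt2-KO and 58.5 to 479 FPKM in WT, the highest sum being that of WT replicate 4. All 7 were lower in Sirt2-KO by sign, with 0 past the threshold by limma and 2, Acta1 and Ckm, at an unadjusted p under 0.05. Over all genes tested, 24.8% had an unadjusted p under 0.05 and 2.91% passed the threshold by limma. The part of these cell types and tissues in the proteasome values was not tested.

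**Figure D1:**
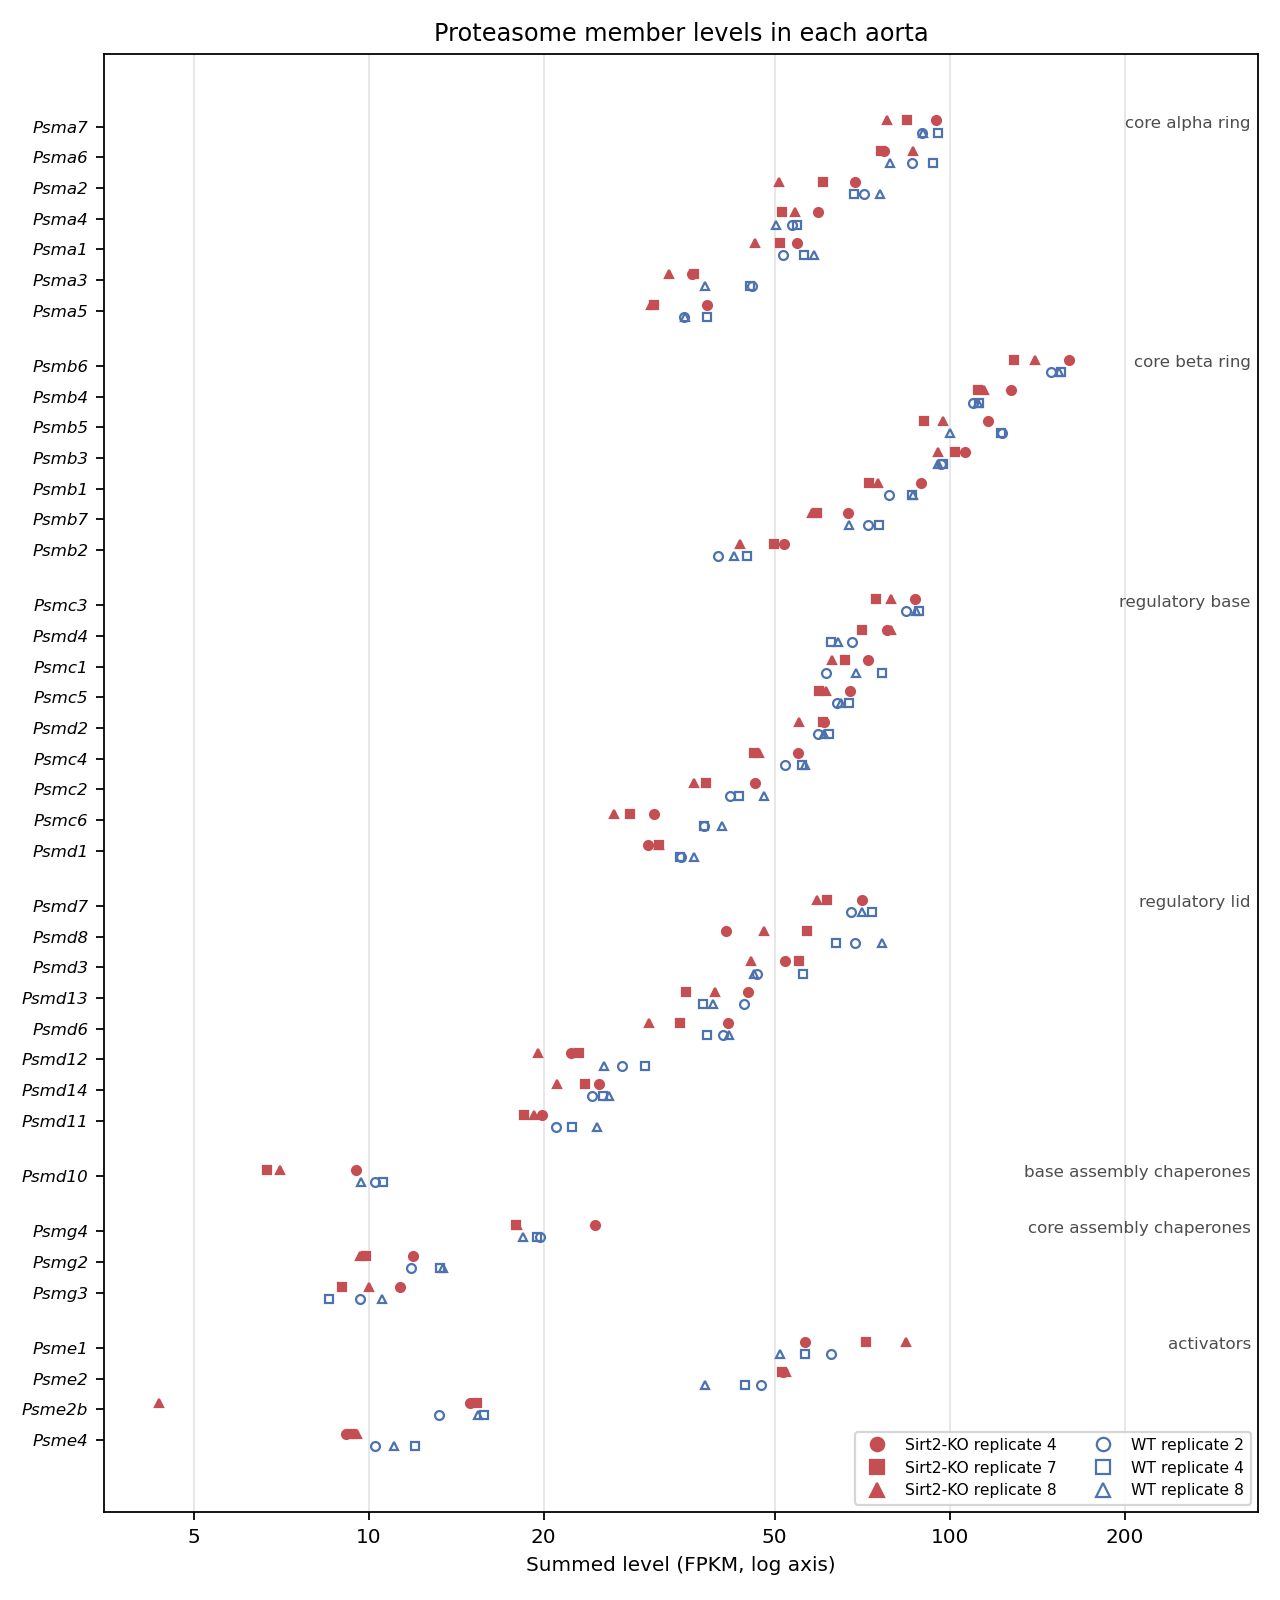
Level of each of the 39 proteasome members in each aorta, as FPKM summed over rows of the same gene name on a log axis. Members are grouped by role and ordered by mean; filled red symbols are the 3 Sirt2-KO aortas and open blue symbols the 3 WT aortas. Levels run from about those of Psmd10 to those of Psmb6, and for most members the red and blue symbols interleave.

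The alpha ring genes had levels between means over 6 aortas of 34.7 FPKM for Psma5 and 88.7 FPKM for Psma7. Of 7 members 6 had a negative difference. Psma3, an alpha ring subunit gene, had the smallest p of the ring. It stood at 36.0, 36.3 and 32.9 FPKM in Sirt2-KO aortas, against 45.7, 45.3 and 38.0 FPKM in WT aortas. These values did not overlap, yet the difference of -0.28 (SE 0.120) did not pass in limma (adjusted p = 0.202). It rested on 1 of the 3 rows listed for Psma3: that row held 6.51, 7.90 and 8.46 FPKM in Sirt2-KO, and 23.0, 19.2 and 8.24 FPKM in WT. In the fit on the highest row per gene, the Psma3 difference was 0.03. Psma2 stood at 68.7, 60.5 and 50.9 FPKM in Sirt2-KO and at 71.1, 68.4 and 76.0 FPKM in WT, where Sirt2-KO replicate 4 overlapped WT (adjusted p = 0.270). The sole member with a positive sign was Psma4, at 55.0 ± 3.90 FPKM in Sirt2-KO and 52.8 ± 2.18 FPKM in WT (SD, n = 3 each), with a difference of 0.06 that was -0.002 after quantile normalization.

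The beta ring genes included the highest member of all. Psmb6, which encodes the caspase-like catalytic subunit, had 160, 129 and 140 FPKM in Sirt2-KO aortas, against 149, 155 and 154 FPKM in WT aortas. The Sirt2-KO values spread around the WT values, and the difference was -0.10 (SE 0.124, limma adjusted p = 0.610), with -0.18 and -0.03 when Sirt2-KO replicate 4 or 7 was left out. Psmb5, the chymotrypsin-like catalytic subunit and the main target of proteasome inhibitor drugs, had 116, 90.3 and 97.4 FPKM in Sirt2-KO and 123, 122 and 100.2 FPKM in WT. Here WT replicate 8 lay among the Sirt2-KO values, and the difference was -0.18 (SE 0.148, adjusted p = 0.447), running from -0.29 without Sirt2-KO replicate 4 to -0.11 without Sirt2-KO replicate 7. Psmb7, the trypsin-like catalytic subunit, had 66.8, 59.1 and 58.1 FPKM in Sirt2-KO and 72.3, 75.5 and 67.1 FPKM in WT. Its groups lay apart by a narrow gap between Sirt2-KO replicate 4 and WT replicate 8, and it did not pass (difference -0.22, SE 0.114, adjusted p = 0.265). Among the non-catalytic subunits, Psmb2 leaned the other way, at 52.0, 49.9 and 43.5 FPKM in Sirt2-KO and 39.9, 44.9 and 42.6 FPKM in WT (difference 0.18, adjusted p = 0.352). Psmb3 and Psmb4 were almost level, with differences of 0.07 and 0.08.

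The ATPases of the base were also close between genotypes, except for Psmc6. This ATPase gene had 31.0, 28.2 and 26.4 FPKM in Sirt2-KO aortas, against 37.7, 37.7 and 40.6 FPKM in WT aortas. All 3 Sirt2-KO values were below all 3 WT values, with means of 28.6 ± 2.31 and 38.7 ± 1.68 FPKM (SD, n = 3 each) and a ratio of 0.738. The log2 difference was -0.43 (SE 0.111), the smallest p among the members, and it missed the threshold over all genes (limma adjusted p = 0.0862). For Psmc6 alone, an exact two-sided permutation of the 6 aortas gave p = 0.1, and 3 mice against 3 cannot give less. Over the 18 alternatives the difference of Psmc6 ranged from -0.49 to -0.36, and its adjusted p from 0.0283, with arrayWeights, to 0.723, in the replicate block fit. Sirt2 itself did not pass in that block fit (limma adjusted p = 0.0792). The other 5 ATPases, Psmc1 to Psmc5, had differences between -0.15 and -0.04, and their groups overlapped.

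The scaffold and receptor subunits of the base had differences of both signs. Psmd1, a scaffold subunit gene, stood at 30.2, 31.6 and 31.6 FPKM in Sirt2-KO and 34.6, 34.3 and 36.3 FPKM in WT. The groups lay apart because each was tight, but the difference was -0.16 (SE 0.0993, limma adjusted p = 0.324). Psmd2, the other large scaffold, averaged 58.8 ± 3.20 FPKM in Sirt2-KO and 60.7 ± 1.39 FPKM in WT. Psmd4, which encodes a ubiquitin receptor, was the sole base or lid member whose Sirt2-KO values all exceeded WT, at 78.2, 70.7 and 79.3 FPKM against 67.8, 62.6 and 64.2 FPKM. Its difference of 0.23 (SE 0.108) did not pass (adjusted p = 0.242), and it was 0.48 in the fit on the highest row per gene, where it also missed the threshold.

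The lid held the member with the largest difference in size. Psmd8, a lid subunit gene whose yeast counterpart is the last to join the lid, had 41.3, 56.9 and 48.0 FPKM in Sirt2-KO aortas, against 68.6, 63.8 and 76.6 FPKM in WT aortas. The groups did not overlap, with means of 48.7 ± 7.84 and 69.7 ± 6.47 FPKM (SD, n = 3 each) and a ratio of 0.700. The log2 difference of -0.51 (SE 0.149) missed the threshold (limma adjusted p = 0.108), and it was -1.14 with only its highest row, which WT replicate 8 dominated. Psmd12 stood at 22.3, 23.0 and 19.6 FPKM in Sirt2-KO and 27.3, 30.0 and 25.4 FPKM in WT, again apart and short of the threshold (difference -0.34, adjusted p = 0.157). Psmd11, a lid scaffold, had 19.9, 18.5 and 19.3 FPKM in Sirt2-KO and 21.0, 22.4 and 24.7 FPKM in WT. Its difference of -0.23 (adjusted p = 0.253) became 0.29 with only its highest row. Psmd14, the deubiquitinase of the lid, was at 24.9, 23.6 and 21.1 FPKM in Sirt2-KO and 24.2, 25.3 and 25.9 FPKM in WT, which overlapped (difference -0.11, SE 0.112, adjusted p = 0.532). Psmd7, the partner of Psmd14 in the lid, averaged 63.8 ± 6.09 FPKM in Sirt2-KO and 70.7 ± 2.93 FPKM in WT and was the highest lid member. Psmd3 (0.04) and Psmd13 (-0.02) were nearly level, and the sign of Psmd3 turned under several alternatives.

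Across all roles, 11 of the 39 members (28.2%) had groups that did not overlap, near the 33.3% of all tested genes. Of these, 9 were lower in Sirt2-KO (23.1% of members, with 17.3% of all tested genes lower and apart) and 2 were higher (5.13%, with 16.0% of all tested genes higher and apart). The lower ones were Psma3, Psmb7, Psmc6, Psmd1, Psmd8, Psmd10, Psmd11, Psmd12 and Psme4, and the higher ones were Psmd4 and Psme2. By particle, they were 2 of 14 core members and 6 of 17 regulatory particle members.

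**Figure D2:**
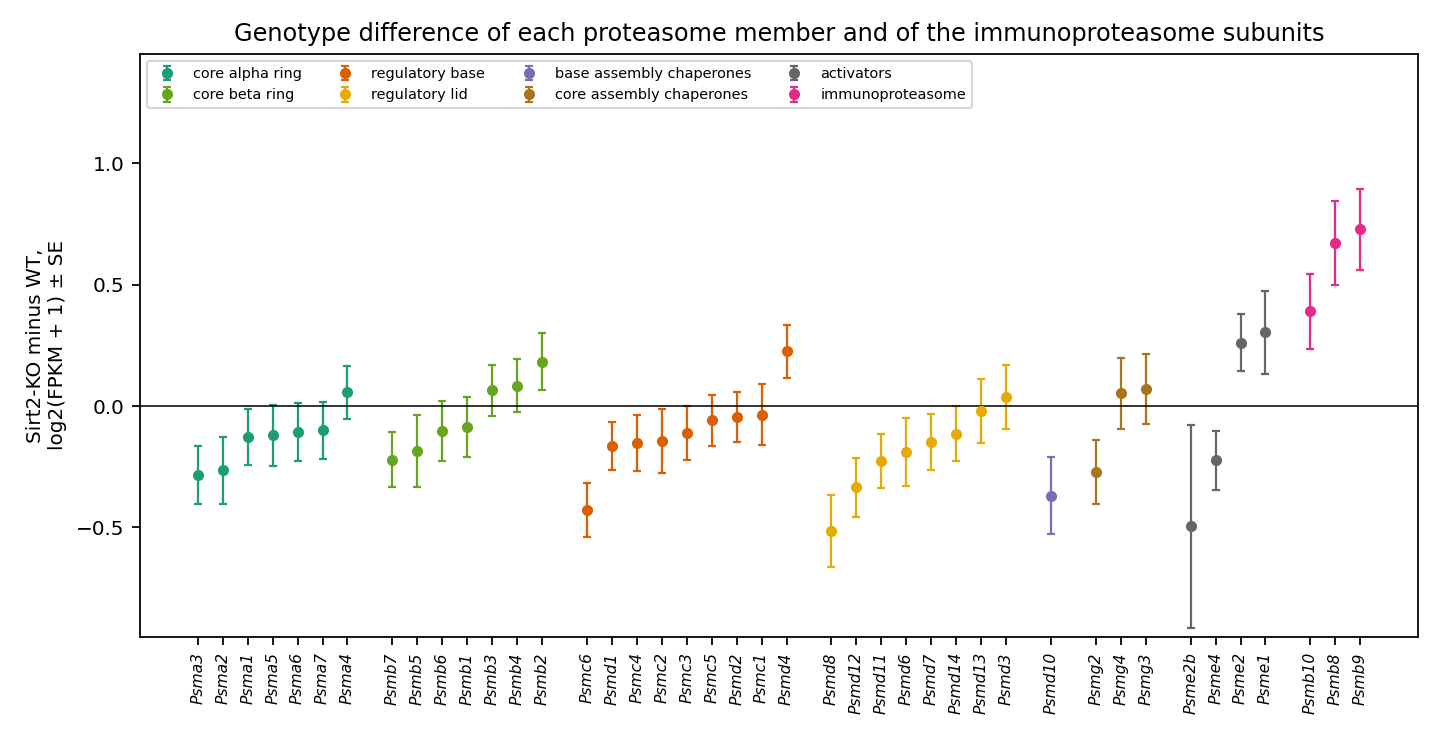
Difference of each member on the log2(FPKM + 1) scale, Sirt2-KO minus WT, with its limma SE, by role, and the 3 immunoproteasome subunits at the right. Members lie between -0.51 (Psmd8) and 0.30 (Psme1), most of them below 0, and the immunoproteasome subunits lie between 0.39 and 0.73; 0 of these genes passed an adjusted p of 0.05.

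Sequences just before the start sites are shown for the 3 members with an unadjusted p under 0.05 (Psmc6, Psmd8 and Psmd12) and for Psmd4, the base member of opposite sign, to set side by side the promoters of genes that leaned apart. They were chosen with these values known. Each is the 250 bases before the start site on the gene's strand, from RefSeq on GRCm38.p6, and lies at chr14:45329574-45329823 (plus strand) for Psmc6, chr7:29180674-29180923 (minus strand) for Psmd8, chr11:107479278-107479527 (plus strand) for Psmd12 and chr3:95042615-95042864 (minus strand) for Psmd4. Capitals mark, on either strand, TGACNNNGC (the core of the antioxidant response element, the kind of site that the Nfe2l1 factor is known to use), CCAAT (the box bound by nuclear factor Y) and GGGCGG (the GC box). No marked motif overlaps one of another kind.
Psmc6: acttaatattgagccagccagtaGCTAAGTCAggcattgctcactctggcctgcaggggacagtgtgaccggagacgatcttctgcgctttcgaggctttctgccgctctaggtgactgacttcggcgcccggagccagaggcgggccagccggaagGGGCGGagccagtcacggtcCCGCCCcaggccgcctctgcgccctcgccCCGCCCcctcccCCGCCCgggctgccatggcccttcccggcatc
Psmd8: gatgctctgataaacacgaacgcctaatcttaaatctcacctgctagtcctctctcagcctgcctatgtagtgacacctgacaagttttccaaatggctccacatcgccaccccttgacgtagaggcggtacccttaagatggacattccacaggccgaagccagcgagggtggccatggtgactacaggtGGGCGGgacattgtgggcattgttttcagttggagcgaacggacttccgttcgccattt
Psmd12: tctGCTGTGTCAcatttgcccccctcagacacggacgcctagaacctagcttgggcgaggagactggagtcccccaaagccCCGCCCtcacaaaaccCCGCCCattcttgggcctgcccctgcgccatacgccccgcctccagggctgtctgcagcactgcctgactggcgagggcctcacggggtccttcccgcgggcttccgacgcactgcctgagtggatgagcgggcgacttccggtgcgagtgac
Psmd4: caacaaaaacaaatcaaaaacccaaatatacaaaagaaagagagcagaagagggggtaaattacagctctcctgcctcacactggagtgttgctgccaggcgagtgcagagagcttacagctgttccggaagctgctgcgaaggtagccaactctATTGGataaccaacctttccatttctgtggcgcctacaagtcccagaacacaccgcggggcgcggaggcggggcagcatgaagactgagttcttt

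Psmc6 and Psmd12 hold TGACNNNGC far upstream, from -227 to -219 and from -247 to -239 relative to the start site. Psmd4 holds CCAAT from -95 to -91 and no GC box in the printed stretch, and Psmd8 holds a single GC box from -59 to -54. Windows of 300 bases (250 before and 50 after the start site) were matched for 32 of the 39 members. TGACNNNGC was present for 5 of the 32 (15.6%) and for 14.0% of 27025 genes with a window. CCAAT was present for 11 (34.4%) and for 41.1% of genes. GGGCGG was present for 20 (62.5%) and for 38.2% of genes. That background was not limited to genes listed in the aorta or matched by level, so the shares do not set the members apart from other expressed genes. The windows with TGACNNNGC belong to Psmb5, Psmb6, Psmc6, Psmd12 and Psme4. These are matches of letters and show no binding.

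As whole particles, core and regulatory transcripts were nearly in proportion in all 6 aortas. The 14 core members summed to 1147, 1007 and 1004 FPKM in Sirt2-KO replicates 4, 7 and 8, against 1102, 1146 and 1085 FPKM in WT replicates 2, 4 and 8. The 17 base and lid members summed to 845, 784 and 762 FPKM in Sirt2-KO, against 843, 875 and 878 FPKM in WT. Both sums overlapped between genotypes through Sirt2-KO replicate 4, with ratios of means of 0.947 for the core and 0.921 for the regulatory particle. That aorta also had the highest total of all listed FPKM (396438). Rescaling to an equal column sum brought the ratios of means to 0.919 for the core and 0.894 for the regulatory particle. The sum of the regulatory particle divided by that of the core was 0.737, 0.778 and 0.759 in Sirt2-KO and 0.765, 0.763 and 0.809 in WT. These ratios overlapped and averaged 0.758 ± 0.0208 in Sirt2-KO and 0.779 ± 0.0257 in WT (SD, n = 3 each). The median log2 difference was -0.10 over core members and -0.14 over regulatory particle members, with 10 of 14 and 15 of 17 negative. Sums over members were not tested.

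Within the particles, the lid was the part whose sums of FPKM as listed lay apart. Sums of single parts were not compared after rescaling to the total of each aorta, so the overlap of the other parts may depend on that total. Lid genes summed to 318, 308 and 283 FPKM in Sirt2-KO and to 340.5, 347 and 350.3 FPKM in WT. Without Psmd8 the lid sums were 276, 251 and 235 FPKM in Sirt2-KO and 272, 283 and 274 FPKM in WT, and they overlapped. Alpha ring sums were 429, 391 and 379 FPKM in Sirt2-KO and 433, 451 and 427 FPKM in WT. Beta ring sums (719, 616 and 624 FPKM in Sirt2-KO, 670, 694 and 658 FPKM in WT) and base sums (528, 476 and 479 FPKM in Sirt2-KO, 503, 528 and 527 FPKM in WT) overlapped as well.

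**Figure D3:**
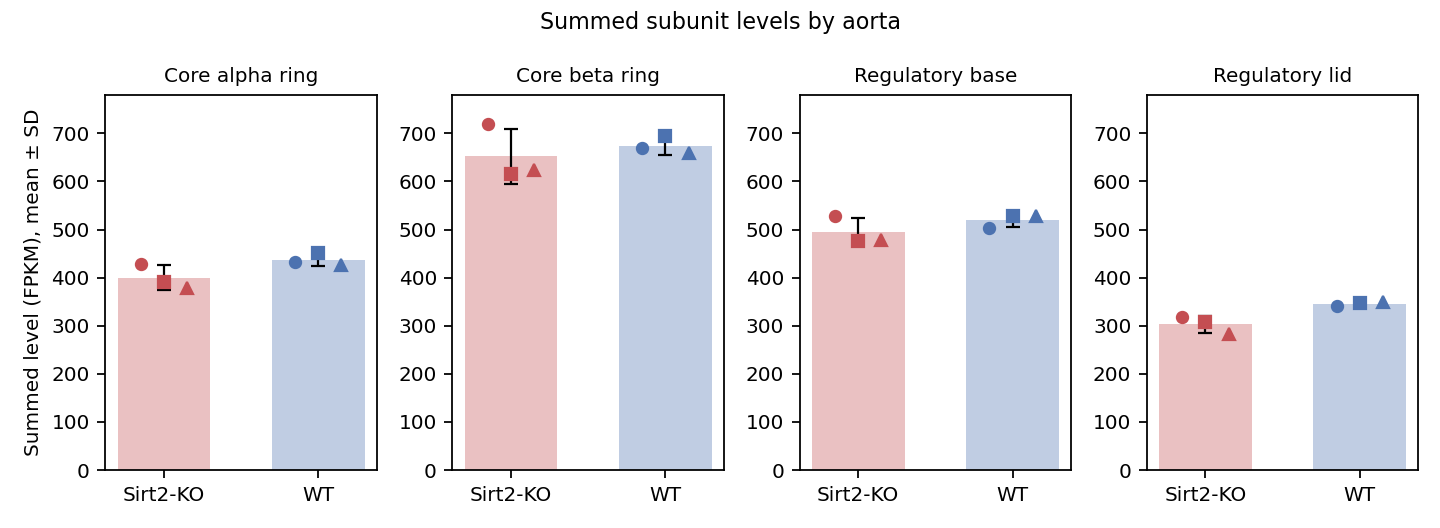
Summed FPKM of the 7 alpha ring, 7 beta ring, 9 base and 8 lid genes in each aorta (points), with the mean (bar) and SD over 3 mice. Sirt2-KO replicates are circles (4), squares (7) and triangles (8), and WT replicates circles (2), squares (4) and triangles (8); the lid sums of the genotypes lie apart, and the others overlap through the Sirt2-KO circle.

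The Sirt2-KO aortas were not alike. Replicate 4 exceeded both other Sirt2-KO aortas in 28 of the 39 members and was below both in 4, among them Psmd8. Replicate 8 was the lowest of the 6 aortas in 17 members and replicate 7 in 11, while replicate 4 and the WT aortas were lowest in 2 or 3 members each. The highest of the 6 aortas was Sirt2-KO replicate 4 in 10 members, WT replicate 4 in 13 and WT replicate 8 in 11. The same counts over all tested genes were not taken, so they are not shown to be particular to the members. All 39 members together summed to 2182, 1982 and 1961 FPKM in Sirt2-KO and to 2130, 2201 and 2130 FPKM in WT. All listed FPKM with a gene name totalled 396438, 367427 and 380603 in Sirt2-KO replicates 4, 7 and 8. In WT replicates 2, 4 and 8 the totals were 369570, 374120 and 367271. Sirt2-KO replicate 4 thus had the highest total as well. As a share of these totals, members took 0.550, 0.539 and 0.515% in Sirt2-KO and 0.576, 0.588 and 0.580% in WT. Every Sirt2-KO share was below every WT share, and the shares were not tested. Those totals include the adipocyte and fibroblast genes given above, whose summed levels were higher in Sirt2-KO, and their part in the shares was not tested.

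Assembly chaperones were low transcripts. Psmd10, which encodes the base chaperone gankyrin, was the lowest member and had 9.52, 6.69 and 7.04 FPKM in Sirt2-KO aortas, against 10.3, 10.6 and 9.71 FPKM in WT aortas. The groups lay apart by a narrow gap, and the difference of -0.37 (SE 0.160) did not pass in limma (adjusted p = 0.210). Psmg2, a chaperone of the alpha ring, had 11.9, 9.88 and 9.66 FPKM in Sirt2-KO and 11.8, 13.3 and 13.4 FPKM in WT (difference -0.27, adjusted p = 0.246). Psmg3 and Psmg4, which act as a pair in alpha ring assembly, differed by 0.07 and 0.05, and each turned sign under some alternatives.

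The activators are alternative caps of the core, and their signs were mixed. Psme1 and Psme2 encode the partner subunits of the interferon-induced activator ring. Psme2 had 51.7, 51.5 and 52.3 FPKM in Sirt2-KO aortas, against 47.3, 44.5 and 38.0 FPKM in WT aortas. All Sirt2-KO values were higher, by 0.26 on the log2 scale (SE 0.118), and the test was not passed (limma adjusted p = 0.223). Psme1 had 56.4, 71.8 and 84.3 FPKM in Sirt2-KO and 62.5, 56.4 and 51.0 FPKM in WT (difference 0.30, SE 0.170, adjusted p = 0.295), and its difference was 0.46 without Sirt2-KO replicate 4, 0.17 without Sirt2-KO replicate 8 and -0.11 with only its highest row. Psme4, a single-chain activator, had 9.13, 9.36 and 9.56 FPKM in Sirt2-KO and 10.3, 12.0 and 11.0 FPKM in WT (difference -0.22, adjusted p = 0.280). Psme2b, a near-identical copy of Psme2 whose reads can be split with it, had 15.0, 15.4 and 4.36 FPKM in Sirt2-KO and 13.2, 15.8 and 15.4 FPKM in WT, where the value of Sirt2-KO replicate 8 stood alone. Psme2 and Psme2b were not summed, so how far the gap between the genotypes in Psme2 depends on that split was not tested.

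The immune forms that replace the constitutive catalytic subunits had positive differences, and 0 of the 3 passed in limma, while all 3 had an unadjusted p under 0.05 (24.8% of all genes tested). Psmb8 had 24.5, 29.0 and 28.3 FPKM in Sirt2-KO and 15.8, 21.4 and 13.8 FPKM in WT (difference 0.67, SE 0.174, limma adjusted p = 0.0854). Psmb9 differed by 0.73 (adjusted p = 0.0696) and Psmb10 by 0.39 (adjusted p = 0.182). The call depended on the fit for Psmb8, whose adjusted p was 0.0187 with arrayWeights and 0.0428 without WT replicate 4, and for Psmb9, at 0.0218 with arrayWeights. The ratio of Psmb8 to Psmb5, the pair that exchange places, was 0.211, 0.321 and 0.291 in Sirt2-KO aortas, against 0.128, 0.175 and 0.138 in WT aortas. The ratio of Psmb9 to Psmb6 was 0.0551, 0.0878 and 0.0600 in Sirt2-KO and 0.0390, 0.0304 and 0.0352 in WT. The ratio of Psmb10 to Psmb7 was 0.399, 0.509 and 0.506 in Sirt2-KO and 0.253, 0.352 and 0.310 in WT. For each of these 3 pairs, chosen after their values were seen, every Sirt2-KO ratio exceeded every WT ratio, with ratios of group means of 1.87, 1.94 and 1.55. Each gave p = 0.1 in an exact two-sided permutation of the aortas, also after adjustment over the 3 pairs, and this design cannot give a smaller p. The constitutive form remained the higher of its pair in all 6 aortas. The 9 macrophage markers given above were higher in Sirt2-KO as well, by sign, and their part in the ratios was not tested.

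**Figure D4:**
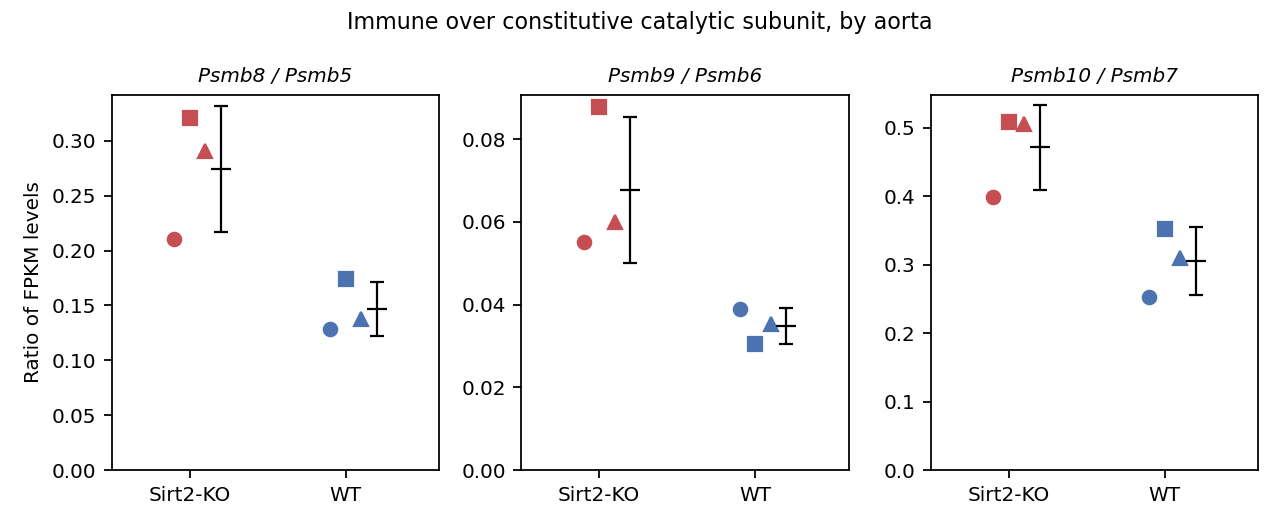
Ratio of the FPKM level of each immune catalytic subunit to that of the constitutive subunit it replaces, per aorta, with the mean and SD over 3 mice beside the points. Symbols mark the replicates (Sirt2-KO circle 4, square 7, triangle 8; WT circle 2, square 4, triangle 8); in each panel the 3 Sirt2-KO ratios lie above the 3 WT ratios, and all ratios are below 1.

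Of the 39 members, 29 had a single row in the table and 10 had 2 to 7 rows, as for a table of transcripts without identifiers. For 9 of the 10, all but Psma3, the coefficient of variation over the 6 aortas was smaller for the sum than for the highest row. Psmd8 was the clearest case: its highest row held 73.0 FPKM in WT replicate 8 and 8.13 to 17.7 FPKM in the other 5 aortas, while its next 3 rows held 0.266, 1.11 and 1.21 FPKM in WT replicate 8 and 5.67 to 23.2 FPKM elsewhere. The coefficient of variation was 110% for that row and 22.2% for the sum. In Psmd4 the highest row held 47.1, 26.6 and 51.1 FPKM in Sirt2-KO and 23.9, 43.6 and 22.0 FPKM in WT, and the second row was low where the first was high. The coefficient of variation of Psmd4 was 36.3% for the highest row and 9.96% for the sum. In Psmd11 a row held 4.96, 4.54 and 5.67 FPKM in Sirt2-KO, and 3.93, 12.7 and 15.8 FPKM in WT. What the rows stand for is not given in any source here, and rows were not tested.

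**Figure D5:**
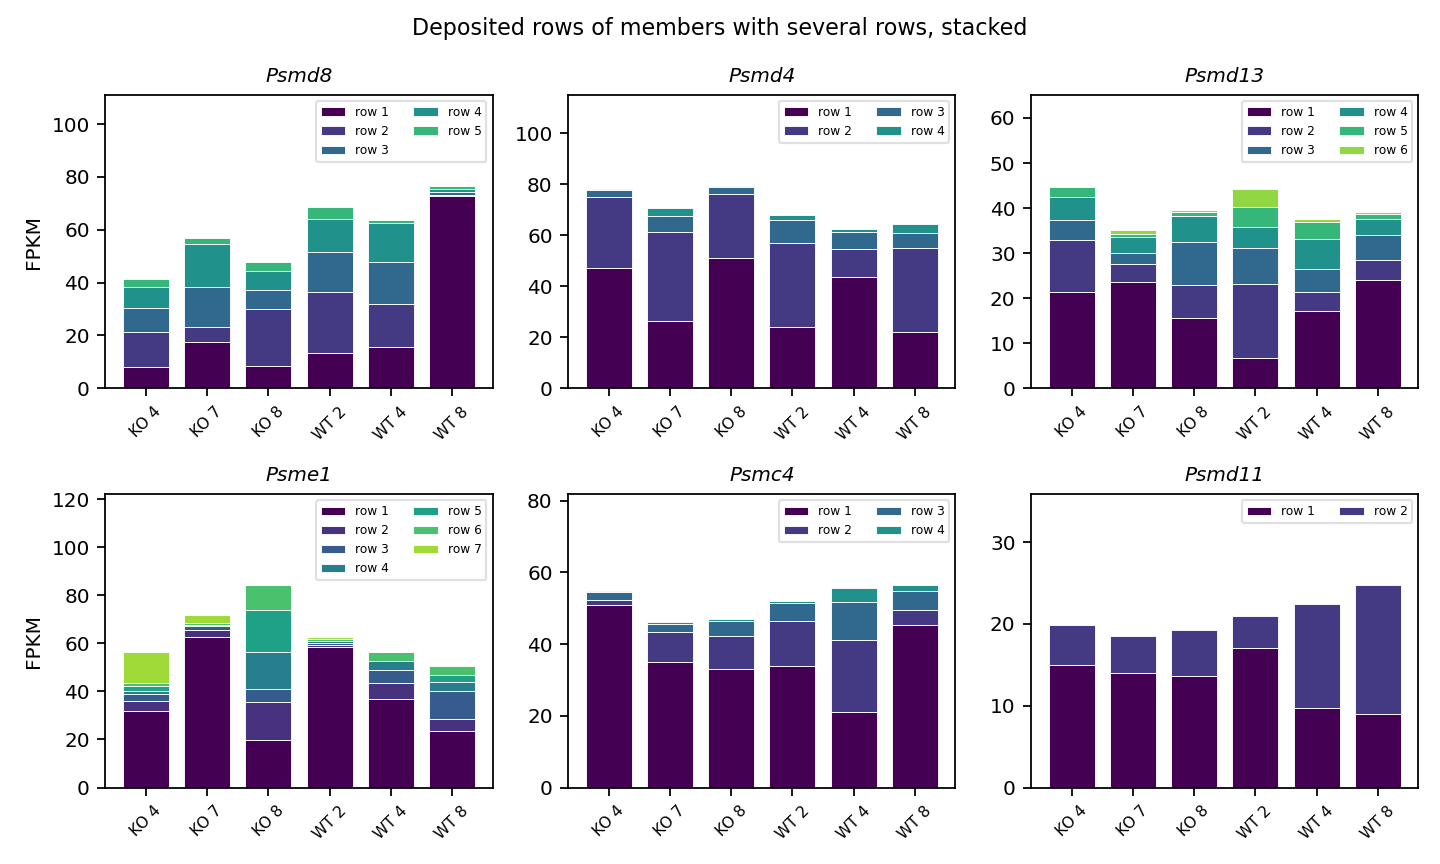
FPKM of each deposited row of 6 members with several rows, stacked for each aorta, Sirt2-KO replicates at the left and WT replicates at the right of each panel. Rows are numbered by mean level; the bars' total heights vary less than the single colours, as in Psmd8, where row 1 makes up nearly all of WT replicate 8.

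By position, 4 members lie on chromosome 7, as Sirt2 does: Psma1, Psmc4, Psmd8 and Psmd13. The nearest are Psmd8 and Psmc4, with 14 protein-coding genes between Psmd8 and Sirt2 and 30 between Psmc4 and Sirt2 in the GRCm38 annotation. Psmd8 differed by -0.51 (limma adjusted p = 0.108), the largest difference in size among the 39 members. Psmc4 differed by -0.15 (limma adjusted p = 0.421), Psma1 by -0.13 and Psmd13 by -0.02. The part of position in these differences was not tested. The 39 members lie on 16 chromosomes. In that annotation 11 members share exon bases with another gene, among them Psmd13 with Sirt3 on the opposite strand, Psmb7 with Nek6, Psmd1 with Htr2b and Psme1 with Emc9. Whether fragments were counted by strand is not given in the sources used here, so reads of such pairs may not be separable.

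Other genes of the ubiquitin and proteasome pathway showed a like picture, with 1 of 52 past the threshold in limma, against 2.91% of all tested genes. That gene was Derl1, which encodes a membrane protein of endoplasmic reticulum protein disposal. It had 57.6, 56.7 and 62.0 FPKM in Sirt2-KO aortas, against 39.1, 34.7 and 36.0 FPKM in WT aortas. Derl1 rose by 0.67 on the log2 scale (SE 0.107, limma adjusted p = 0.0282). It missed the threshold when any of 5 aortas was left out (all but Sirt2-KO replicate 4, highest adjusted p = 0.133). In the replicate block fit its adjusted p was 0.564, but Sirt2 did not pass there either (adjusted p = 0.0792). Among 15 proteasome partners with other names 0 passed by limma and 2 had an unadjusted p under 0.05, where 24.8% of all genes tested did. Both were lower: Usp14, a deubiquitinase that docks on the base, with 13.0, 12.6 and 10.1 FPKM in Sirt2-KO and 16.4, 17.5 and 18.9 FPKM in WT (difference -0.53, adjusted p = 0.0839, and 0.0435 with arrayWeights), and the ubiquitin shuttle gene Ubqln2 (-0.51, adjusted p = 0.129). Of 15 ubiquitin and ubiquitin-activation genes 0 passed and 1 had an unadjusted p under 0.05, Ube2g1 (-0.38, adjusted p = 0.175), while Uba1, the main ubiquitin-activating enzyme, differed by -0.25 (adjusted p = 0.215). Of 11 genes of the segregase Vcp and its cofactors, Derl1 alone had an unadjusted p under 0.05, and the cofactor gene Nsfl1c was next (-0.31, adjusted p = 0.265). All these lists are too short to set their shares apart from the 24.8% and 2.91% of all genes tested.

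Among 11 genes that regulate proteasome genes or stress responses tied to them, 0 passed by limma and 2 had an unadjusted p under 0.05, where 24.8% of all genes tested did. These were Nfya (-0.90, adjusted p = 0.112, and 0.0200 with arrayWeights) and Hsf1 (-0.40, adjusted p = 0.165). Nfya encodes a subunit of the CCAAT-binding factor and Hsf1 the heat shock transcription factor. Nfe2l1 had 38.0, 28.0 and 27.2 FPKM in Sirt2-KO aortas, against 34.8, 39.6 and 88.2 FPKM in WT aortas. The groups overlapped, WT replicate 8 stood far above the other 5 aortas, and the difference of -0.67 (SE 0.344) did not pass (limma adjusted p = 0.263). Without WT replicate 8 the difference was -0.27.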

How the data were processed

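RNA of 6 aortas was sequenced. The authors deposited 1 table of FPKM values, per the file headers, in 14083 rows with a gene name and no transcript identifier. The submitters' processing notes name Bowtie 0.12.2 and mm9, and no source used here gives the quantifier or the annotation. The sequencing depth is unknown, so no counting intervals are given. Rows of the same name were summed to 8690 genes, leaving out 39 rows whose names had become dates. Genes averaging 1 FPKM or more (8605) were tested as log2(FPKM + 1) with limma 3.58.1 in R 4.3.3 (lmFit, then eBayes with a trend), genotype as the only term, all 6 aortas, and Benjamini-Hochberg adjustment over all tested genes at 0.05. A difference on this scale understates the change of low genes. The fit was also run on simulated data, with planted differences larger than that of any member. That run therefore cannot show whether differences of the members' size would be called. Single values were compared with exact two-sided permutation tests.

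The members and lists were chosen with earlier results of these data known. Members were named if past the threshold, if smallest in p in either direction, highest or lowest in level within a role, if the groups did not overlap, or if catalytic; the 3 ratios of immune to constitutive subunits and the other names were chosen after values were seen. The 18 alternatives covered pseudocount, filter, scaling, trend, sample weights, row choice, replicate block and leaving out each aorta. The design text gives 3 mice per genotype. Promoters and chromosomes come from GRCm38 tables, used for sequence, names and neighbours only. Figures were drawn with matplotlib 3.10.9.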

Additional observations from a re-analysis of the deposited data

How the results depend on the processing

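No proteasome member passed an adjusted p of 0.05 in 17 of the 18 alternatives, and 1, Psmc6, passed with arrayWeights, as did Psmb8, Psmb9, Usp14 and Nfya. Members at an unadjusted p under 0.05 numbered 5 with a minimum mean of 20 FPKM, 8 after rescaling to an equal column sum, 6 with median-of-ratios scaling, 6 with quantile normalization and 11 with arrayWeights, and 2 to 9 when an aorta was left out. The share of all tested genes at that level, 24.8% in the main fit, was not taken for the alternatives, so these counts have no background. Genes called over the whole table numbered 141 with the minimum of 20 FPKM, 1114 with arrayWeights and 151 with only the highest row per gene, and 28 to 344 when an aorta was left out. The summed ratio was 0.964 for the regulatory particle with median-of-ratios scaling and 0.886 for the core with quantile normalization. The median difference of members was -0.15, -0.05 and -0.19 after equal-sum, median-of-ratios and quantile scaling, that of all genes -0.12, -0.02 and -0.07, and 30, 25 and 33 members were negative. Signs turned for Psmd3 (-0.0042 with an equal column sum, -0.0274 with quantile normalization, -0.0200, -0.0024 and -0.0125 without Sirt2-KO replicate 7, WT replicate 2 and WT replicate 8, and at most 0.126 when an aorta was left out), Psma4 (-0.0020 with quantile normalization), Psmg3 (-0.0457 with arrayWeights, -0.0097 and -0.0044 without Sirt2-KO replicate 4 and WT replicate 4, and at most 0.143 with an aorta left out) and Psmg4 (-0.0498 with arrayWeights, -0.0779 with the highest row, -0.0913 without Sirt2-KO replicate 4 and at most 0.126 with an aorta left out), and with the highest row for Psma3 (0.0341), Psmd11 (0.286) and Psme1 (-0.1145); the cause was not tested. The replicate numbers 4 and 8 occur in both genotypes, and deviations of same-numbered aortas correlated at -0.049 and -0.452, those of other pairs at -0.312 to 0.354. No label ties a number to a litter or day, so the numbers were not used to pair aortas. With the replicate number as a block, 3 genes and 0 members passed by limma (0 members at an unadjusted p under 0.05, smallest adjusted p 0.638), Psmd3 was -0.0594, and Sirt2 was -3.63 with an adjusted p of 0.0792. WT replicate 2 and Sirt2-KO replicate 7 share no number with another aorta, so that fit rested on the others and could call few genes. Missing the threshold in it therefore says little about a gene. The table holds no counts, so precision at low levels could not be set by depth.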
